A study of Mus musculus with 109 samples.

Results

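The gene-rich block around Ctcf is the stretch chr8:107000001-110000000 of the mouse genome (mm9), chosen by its coordinates, with Ctcf between 108000001 and 108500000. It held 891 of the 39480 HindIII sites of chromosome 8 and of the 823352 sites in the whole table, and 96 protein-coding genes of the GENCODE annotation of the same build overlapped it. Of 43 windows of 3 Mb on chromosome 8, 0 had more genes (median 17), and 8 had a higher GC content than its 45.6% (median 43.0%). The block was read from 6 baits on the same chromosome by 4C-seq, in which crosslinked chromatin is cut with HindIII and ligated, cut again with DpnII and circularised, and amplified from 1 chosen fragment, the bait, so that reads mark the HindIII sites joined to it. A site with 1 read or more is called captured below.

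All libraries came from C127 cells, a mouse mammary tumour line, and the series asks how chromatin contacts form as cells enter G1. The libraries were labelled G0 (5 days of serum starvation, 2 replicates), G2 (15 h release), mitosis (a 4 h nocodazole block) and 30 min, 1, 2, 3 and 4 h after release from that block. The 30 min and 1 h labels had 2 replicates each and are called the first hour (4 libraries a bait). The 2, 3 and 4 h labels are called 2 to 4 h (3 libraries a bait). G0 and mitosis are arrest states produced by starvation and by a spindle poison, and 4C-seq counts allow no check of the cell line by marker genes. The baits B7, B26, B44 and B53 had 11 libraries each, and B87 and B118 had 10 each, without mitosis.

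CTCF is a zinc finger protein that binds DNA and, together with cohesin, anchors loops and domain borders. At a larger scale, gene-rich chromatin tends to lie in the active compartment and to contact other active chromatin, whereas gene-poor chromatin gathers in the inactive compartment, often at the nuclear lamina. Domains and compartments are largely lost in mitotic chromosomes and form again after division. Gene-rich regions commonly replicate early in S phase.

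Each bait is fixed by its primer, which ends on the HindIII site (capitals) where ligation takes place. The primers are shown because they set the viewpoint from which the block was read.

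B7: tattaggacagacagAAGCTT
B26: ttgagtttgacgccAAGCTT
B44: ggtcatccctttagAAGCTT
B53: aaacatgtttggccAAGCTT
B87: gggcggagatggAAGCTT
B118: cctcatacagctggAAGCTT

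All 6 primers matched the plus strand of mm9 at 1 place on chromosome 8. B7 (chr8:7223950-7223970) and B53 (chr8:52961959-52961978) lay between genes in 500-kb bins with 0 protein-coding genes, with 37.1% and 36.2% GC. B44 (chr8:44417335-44417354), 24986 bp from Zfp42, had 4 genes and 40.5% GC in its bin. B118 (chr8:118459309-118459328) lay 227629 bp from Maf, with 1 gene and 43.9% GC. B26 (chr8:26774313-26774332) lay in an intron of Whsc1l1, with 12 genes, and B87 (chr8:87434064-87434081) in an intron of Dnase2a, with 20 genes and 49.9% GC. The near edge of the block was 99.78 Mb from B7, 80.23 Mb from B26, 62.58 Mb from B44, 54.04 Mb from B53, 19.57 Mb from B87 and 8.46 Mb from B118, so all contacts below are long-range.

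The next sequences are HindIII sites of the block, each with 20 bases on either side on the plus strand of mm9 and the site in capitals. The first is the Ctcf site captured in most libraries, the second the one captured in fewest, and the others are sites captured in most libraries of a bait or over all baits.

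Ctcf intron, most captured: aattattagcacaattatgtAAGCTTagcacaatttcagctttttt
Ctcf intron, least captured: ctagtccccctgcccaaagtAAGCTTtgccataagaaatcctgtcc
E2f4 intron: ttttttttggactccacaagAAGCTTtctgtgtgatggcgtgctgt
Kctd19 intron: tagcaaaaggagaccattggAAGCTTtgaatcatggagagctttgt
Prmt7 intron: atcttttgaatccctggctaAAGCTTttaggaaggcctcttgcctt
beside Smpd3: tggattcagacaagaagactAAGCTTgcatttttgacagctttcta
Cdh1 intron: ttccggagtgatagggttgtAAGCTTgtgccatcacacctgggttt
beside Cdh1: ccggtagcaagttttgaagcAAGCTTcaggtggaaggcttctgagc
beside Ces2h: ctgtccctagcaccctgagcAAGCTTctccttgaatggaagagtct
beside Terf2: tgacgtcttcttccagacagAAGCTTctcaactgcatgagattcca

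The 70 columns used held 266006 to 8826711 reads each (median 2985117), with 687 to 22931 captured sites on chromosome 8 beyond 2 Mb from the bait. In 70 of 70 columns the labelled bait, of the 6, had the most reads within 100 kb of its site. After the technical replicates of 2 h were summed there were 64 libraries. Some libraries shared sites to a degree that others did not, and the technical replicates of 2 h were not among them. On other chromosomes these replicates had 8.57% to 27.0% of sites in common, counted over the library with fewer, so what the summed 2 h library stands for is uncertain. Between 1 h replicate 2 and the first technical replicate of 2 h, 71.6% to 99.3% of the block sites captured in the smaller of both were common, depending on the bait, against a median over the remaining pairs of 13.9% to 38.2% at B7, B26, B44 and B53, 88.2% at B87 and 95.4% at B118. On other chromosomes 64.9% to 96.7% were common to this pair, against a median over the remaining pairs of 6.24% to 24.8%. G0 replicate 1 shared sites with both at B26, B44 and B53 (26.8% to 61.6% on other chromosomes), as did G0 replicate 2 at B118 (81.5% and 83.6%). At B7, 30 min replicate 2 and 3 h had 7 of the 12 block sites of 3 h in common, and on other chromosomes 14.6 times as many sites as independent draws would share, against 2.41 to 4.87 times at the other baits. This pair links the first hour to 2 to 4 h, and its libraries stay in unless they are named as left out. Labels are therefore used as labels only, and results are given where a call depends on it without 1 h replicate 2 and the first technical replicate of 2 h (below, the libraries that share sites), and with the G0 libraries just named left out as well. Libraries of different baits under 1 label may come from the same culture, so p-values measure the spread between libraries and baits, which may be technical.

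The block was captured more often than its distance predicts from the baits in Dnase2a (B87) and Whsc1l1 (B26), and less often from B53. From B7, which like B53 lay in a bin with 0 protein-coding genes, no departure was detectable. The expected number of captured sites was taken, in each library, from the fall of the captured share with distance over chromosome 8. From B87 the 10 libraries captured between 65 and 721 of the 891 sites, 4444 in all against 3052 expected. The log2 ratio of captured over expected sites (both plus 0.5) ran from 0.25 to 1.70, with a median of 0.63. It lay above 0 in 10 of 10 libraries, and the lowest was G0 replicate 2 and the highest 4 h. From B26 the 11 libraries captured 26 to 477 sites, 1880 in all against 1292 expected, and the log2 ratio ran from 0.17 to 1.03 with a median of 0.58, above 0 in 11 of 11. From B53, 13 to 381 sites were captured, 1791 in all against 2259 expected. Its log2 ratio ran from -1.03 to 0.42 with a median of -0.38, and only the libraries labelled G2 and G0 replicate 1 lay above 0.

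Mean log2 ratios were 0.83 ± 0.60 from B87 (SD, n = 10, adjusted p = 0.00586), 0.52 ± 0.26 from B26 (SD, n = 11, adjusted p = 0.00586) and -0.40 ± 0.48 from B53 (SD, n = 11, adjusted p = 0.0381), by exact two-sided sign-flip permutation tests over libraries with Benjamini-Hochberg adjustment over 6 baits. The first 2 are 1.78-fold and 1.43-fold of the expected number, and the last is 0.756-fold. Smaller departures were measured from B118, the nearest bait, at 0.07 ± 0.08 (n = 10, above 0 in 9, adjusted p = 0.0156 in the same permutation test), and from B44 at -0.13 ± 0.17 (n = 11, above 0 in 3, adjusted p = 0.0492). From B7 the mean was -0.16 ± 0.38, above 0 in 2 of 11 (adjusted p = 0.173, same permutation test), so no departure was detectable there. Without the libraries that share sites, the call at B44 ended (adjusted p = 0.0750, permutation test) and so did that at B53 (-0.45, adjusted p = 0.0557). With the sharing G0 libraries left out as well, B53 gave -0.52 (adjusted p = 0.0469) and B44 -0.12 (adjusted p = 0.131). When reads replaced captured sites, B118 had a mean of -0.03, below 0, with an adjusted p of 0.582.

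**Figure D1:**
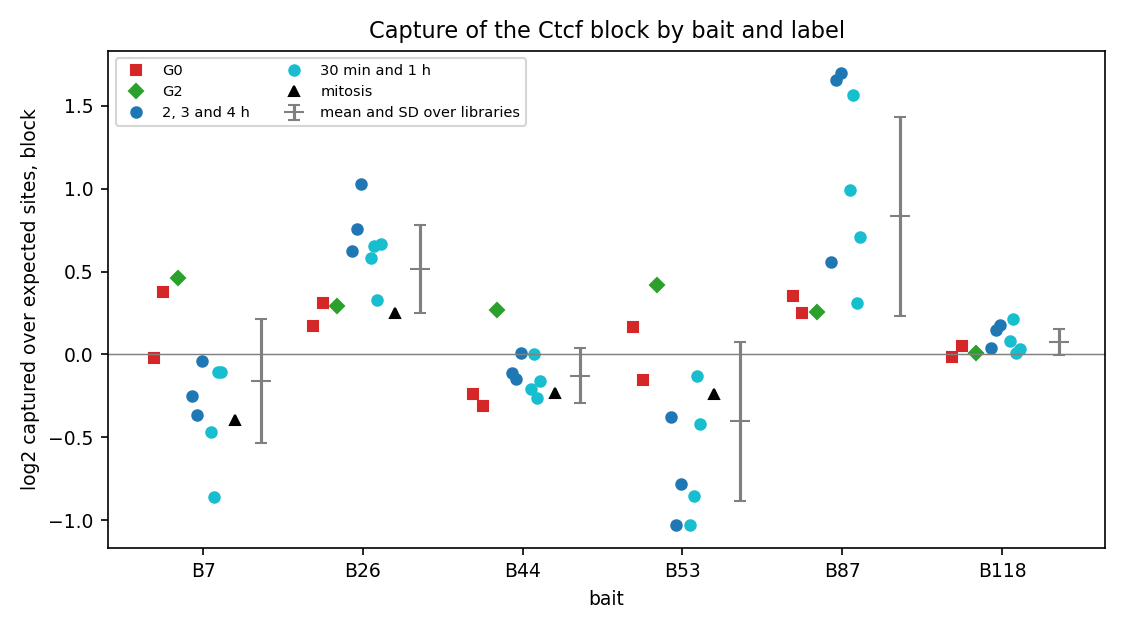
Log2 of captured over expected HindIII sites in the Ctcf block (y axis), 1 point a library, by bait (x axis) and label, with the mean and SD over the libraries of each bait in grey. All libraries of B26 and B87 lie above 0, 9 of 11 of B53 lie below 0, and those of B118 lie between -0.02 and 0.21.

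The block was also set against its neighbouring chromatin. The 3-Mb windows on both sides (chr8:104000001-107000000, with 15 protein-coding genes, and chr8:110000001-113000000, with 24) held 1940 HindIII sites. The block exceeded them by 0.84 ± 0.41 on the log2 scale from B26 (SD, n = 11, above in 11) and by 0.78 ± 0.78 from B87 (n = 10, above in 10), both with an adjusted p of 0.00586 in the exact permutation test. From B53 the difference was -0.44 ± 0.52 (above 0 in 2 of 11, adjusted p = 0.0469), and 0.0703 without the libraries that share sites. The flanks themselves averaged -0.32 ± 0.18 from B26 and 0.05 ± 0.20 from B87. From B7, B44 and B118 the block minus its flanks was -0.16, -0.10 and 0.05, with adjusted p-values of 0.268, 0.152 and 0.0674.

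Of the 15 pairs of baits, 10 differed in the log2 ratio of the block (two-sided permutation test, 100000 resamples, adjusted over 15 pairs). B87 exceeded each of B7, B44, B53 and B118, by 1.00, 0.96, 1.24 and 0.76. B26 exceeded B7, B44, B53 and B118 by 0.68, 0.64, 0.92 and 0.44. Under 13 alternatives, a correction for saturation among them, B87 exceeded B118 by 0.61 to 1.17 and B26 exceeded it by 0.30 to 0.62. B118 exceeded B44 by 0.20 (adjusted p = 0.00505) and B53 by 0.48 (adjusted p = 0.00837). B26 and B87 were 0.32 ± 0.21 (SE) apart, with an adjusted p of 0.151 in the permutation test, whereas on reads they were 0.55 apart (adjusted p = 0.0435). The 3 pairs among B7, B44 and B53 did not pass (differences of 0.03 to 0.28, adjusted p of 0.107 to 0.787, same permutation test). B7 and B118 were 0.24 apart (adjusted p = 0.0866, same test).

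Among 3-Mb windows of chromosome 8 ranked by their mean ratio, the block stood at place 2 of 38 from B26 and 3 of 37 from B87. It stood at place 15 of 38 from B118, 31 from B7 and B44, and 32 from B53. In single libraries its place ran from 1 to 7 from B26 and from 2 to 9 from B87, and from 1 to 38 from B53. Other gene-rich windows give a scale. The window chr8:71000001-74000000, with 91 genes, had mean log2 ratios of 0.32 from B87, 0.30 from B26 and -0.69 from B53. The window chr8:122000001-125000000, with 46 genes and 51.8% GC, had 1.01, 0.48 and -0.63. The window chr8:74000001-77000000, with 47 genes and 43.2% GC, did not share this pattern, at -0.18 from B87, -0.12 from B26 and -0.05 from B53. Over the windows of a bait the ratio went with the number of genes at a Spearman coefficient of 0.72 from B87 (37 windows), 0.65 from B26, 0.42 from B118, -0.19 from B44, -0.50 from B7 and -0.54 from B53 (38 windows each). With GC content the coefficient was 0.90 from B87, 0.64 from B26, 0.53 from B118, 0.09 from B44, -0.15 from B7 and -0.32 from B53. These coefficients describe windows of 1 chromosome that share libraries and base composition.

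**Figure D2:**
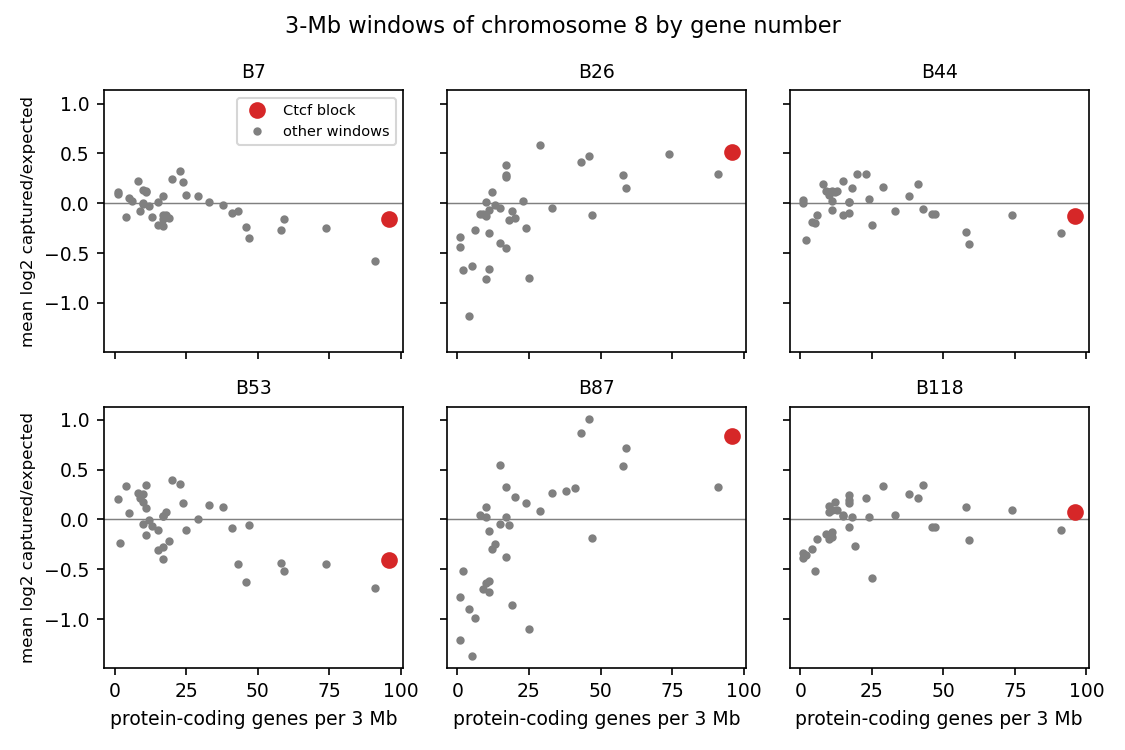
Mean log2 captured over expected sites of each 3-Mb window of chromosome 8 (y axis) against its number of protein-coding genes (x axis), 1 panel a bait, the Ctcf block in red. The block has 96 genes in each panel, and lies at 0.83 from B87, 0.52 from B26 and -0.40 from B53.

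Within the block, the 500-kb bins did not all behave alike. Each bait was set against the other 5 with edgeR's quasi-likelihood test on captured sites, with the expected number as offset and adjustment over 1188 tests. From B87, 6 of 6 bins of the block were higher (30.8% of the 198 bins of the chromosome tested were higher from B87), with log2 fold changes of 0.29 to 0.82. From B26, 5 of 6 were higher (23.2% of bins), and from B53, 4 of 6 were lower and 0 higher (22.2% of bins lower and 29.3% higher). From B44, 2 of 6 were lower (7.58% of bins), from B7, 1 of 6 (15.2%), and from B118, 0 of 6 were called in either direction (5.56% of bins higher and 1.52% lower), with 0 at an unadjusted p under 0.05 and 0 by limma. When libraries were reduced to equal numbers of captured sites, 6 of the 18 calls were made in all, 3 from B87, 2 from B26 and 1 from B53. At that depth the other bins could not be told from the rest.

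The bin with Ctcf, chr8:108000001-108500000, has 27 protein-coding genes, the most of the 6, and 47.5% GC. From B87 its libraries captured 16 to 139 of 153 sites and its mean log2 ratio was 1.05 ± 0.79 (SD, n = 10), above 0 in 10. Against the other baits this was a log2 fold change of 0.82 ± 0.12 (SE, adjusted p = 3.00e-07, edgeR). From B26 the mean was 0.62 ± 0.46 (n = 11, above 0 in 10), and only G0 replicate 1 fell below 0, at -0.37. Against the other baits this was 0.75 ± 0.16 (SE, adjusted p = 8.16e-05, edgeR). From B53 the mean was -0.60 ± 0.83 (above 0 in 2 of 11), a log2 fold change of -0.74 ± 0.16 (SE, adjusted p = 0.000183, edgeR).

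The bin beside it, chr8:108500001-109000000, holds Nfatc3, Esrp2, Prmt7 and Smpd3. Its mean was 1.08 ± 0.80 from B87 (n = 10) and 0.74 ± 0.44 from B26 (n = 11), the highest of the 6 bins at both. From B53 its mean was -0.83 ± 1.10 (n = 11), the lowest mean there. The B53 libraries of 3 h and 4 h captured only 1 and 0 of its sites. By median the Ctcf bin was the lowest from B53, at -0.48 against -0.46 here. The last 2 bins (chr8:109000001-109500000 with Cdh1, Cdh3 and Has3, and chr8:109500001-110000000 with Terf2, Nfat5 and Nqo1) had means of 0.80 and 0.84 from B87, 0.40 and 0.70 from B26, and -0.36 and -0.83 from B53. From B118 the last bin was at 0.23 ± 0.26, above 0 in 9 of 10. The second bin, chr8:107500001-108000000 with Cbfb, Hsf4 and E2f4, had 0.75 from B87 (above 0 in 10 of 10) and 0.52 from B26 (11 of 11).

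The first bin, chr8:107000001-107500000, stood apart from the other 5 bins at B26, B87 and B118. This was noticed in the values, and the difference between bins has no test. Set against the other baits, the first bin was among those called higher from B87 (log2 fold change 0.29 ± 0.09, SE, adjusted p = 0.00791, edgeR). From B26 it missed, at -0.29 ± 0.12 (SE, adjusted p = 0.0502, edgeR). Its mean was -0.45 ± 0.38 from B26 (above 0 in 1 of 11), -0.18 ± 0.43 from B87 (5 of 10) and -0.24 ± 0.09 from B118 (0 of 10). Summed over libraries, B87 captured 540 sites there against 534 expected. From B7, B44 and B53 the bin's means were -0.31, -0.11 and -0.29. It holds Car7 and Cdh16 and part of a cluster of 11 carboxylesterase (Ces) genes, chr8:107257903-107674009, a family of related genes, in which 28 of 120 HindIII sites had no unique end as defined next. In this bin 25 of 155 sites (16.1%) had no end whose first 36 bases were unique among the HindIII ends of the genome, against 50 of 891 (5.61%) in the block, and 34 sites were captured in 0 of 64 libraries. Without such sites the first bin's means were -0.29 from B26, -0.07 from B87 and -0.07 from B118, and the other 5 bins lay at 0.43 to 0.67 from B26 and 0.71 to 0.96 from B87.

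**Figure D3:**
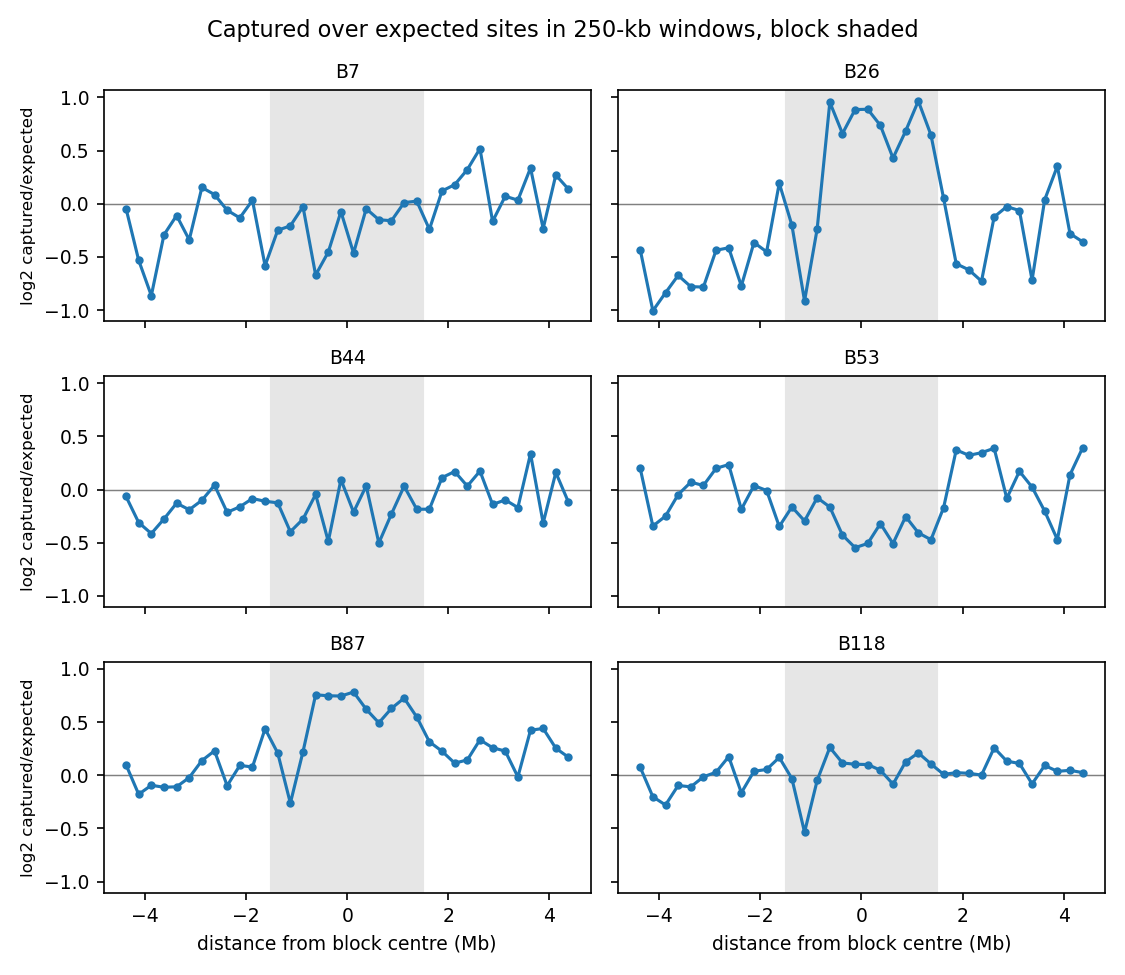
Log2 captured over expected sites (y axis), libraries of a bait summed, in 250-kb windows against the distance from the block's centre in Mb (x axis), with the block shaded and 1 panel a bait. From B26 and B87 the lowest window of the block lies near its left edge, at -0.91 and -0.26, and all windows to the right of the first 3 lie above 0.4, and from B53 every window of the block lies below 0.

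The genes of the block are described next, each with 25 kb on either side and the libraries of a bait summed, with no test. Libraries with many captured sites weigh most in these sums. At B26, 1 h replicate 2 and 2 h, which share sites, held 373 and 477 of the 1880 block sites, and at B7 271 and 217 of 726. Gene values without them are not given. Of 25 named genes, 25 were above the expected number from B87 (median log2 ratio 0.73), 23 from B26 (0.82) and 22 from B118 (0.12). From B53, 0 of 25 were above (median -0.46), from B44 8 (-0.15) and from B7 6 (-0.26). Over all 96 genes the numbers above expected were 90, 81, 78, 10, 30 and 22 in the same order of baits, and neighbouring genes share sites.

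Of the 12 genes with roles in the nucleus, 12 were above expected from B87, from B26 and from B118, 6 from B44, 3 from B7 and 0 from B53. From B44 the highest of the 12 were Hsf4 (0.66), Cenpt and E2f4 (0.45 each) and Thap11 (0.37), and the lowest was Ctcf (-0.42). The Ctcf window had 35 HindIII sites. From B87 its libraries captured 6 to 31 of them, with a median of 27, and from B26 1 to 25, with a median of 4. From B53 they captured 1 to 16, also with a median of 4. Summed over libraries this gave log2 ratios of 0.81 from B87, 0.83 from B26 and -0.46 from B53. The means over libraries were 1.12, 0.53 and -0.38 in the same order. E2f4, which encodes a transcription factor that represses cell cycle genes with pocket proteins, had 0.94 from B87, 1.11 from B26 and -0.45 from B53, and its window of 16 sites was above expected in 10 of 10 libraries of B118 as well (0.41). Its neighbour Hsf4, a heat shock transcription factor gene, had 0.95, 1.23 and -0.15, and Cbfb, which encodes the partner of the RUNX factors, 0.56, 0.17 and -0.34. The shelterin genes Acd and Terf2, whose products protect telomeres, had 0.79 and 0.74 from B87, 0.77 and 0.97 from B26, and -0.35 and -0.53 from B53. Cenpt, which encodes a kinetochore protein, and Thap11, a zinc finger gene next to it, had the lowest values of the 25 from B53 (-1.20 and -1.24) and 1.01 and 0.95 from B26. Nfatc3 and Nfat5, of the NFAT family, had 0.74 and 0.54 from B87, and the zinc finger gene Zfp90 and the arginine methyltransferase gene Prmt7 had 0.55 and 0.64.

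Of the 5 genes of adhesion and epithelium, 5 were above expected from B87, 4 from B26, 3 from B118 and 0 from B53, B44 and B7. Esrp2, a splicing regulator of epithelial cells, had the highest value of the 25 from B87 (0.97) and 1.08 from B26. Cdh1, which encodes E-cadherin, had 0.57, 0.51 and -0.28 from B87, B26 and B53, and Cdh3, P-cadherin, had 0.50, 0.39 and -0.70. Has3, a hyaluronan synthase gene, had 0.77 from B87 and 0.62 from B26. Cdh16, a cadherin gene of the first bin, had 0.26 from B87 and -0.28 from B26.

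Of the 8 genes of enzymes, transport and protein turnover, 8 were above expected from B87, 7 from B26 and from B118. From B7 3 were above, from B44 2 and from B53 0. Nqo1, which encodes a quinone reductase, had 0.75 from B87 and 1.12 from B26, was above expected in 10 of 10 libraries of B118 (0.29) and in 0 of 11 of B53 (-0.63). Vps4a, whose product disassembles ESCRT-III, had 0.80 from B87, 1.02 from B26 and -1.13 from B53. Lcat, a plasma cholesterol acyltransferase gene, Psmb10, an immunoproteasome subunit gene, and Slc12a4, a potassium-chloride cotransporter gene, lie side by side and had 0.82, 0.82 and 0.77 from B26. The ubiquitin ligase gene Wwp2 had 0.58 and the sphingomyelinase gene Smpd3 0.57 from B87. The carbonic anhydrase gene Car7, in the first bin, had 0.15 from B87 and -0.05 from B26, the lowest value of the 25 from B87.

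**Figure D4:**
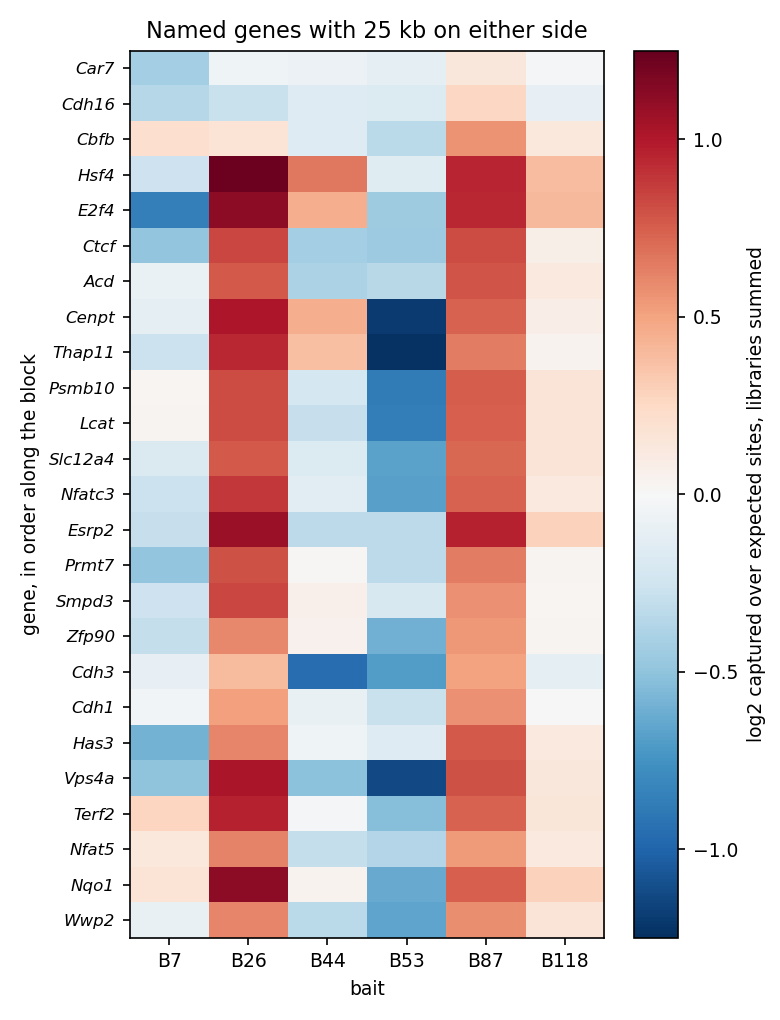
Log2 captured over expected HindIII sites around 25 named genes (rows, in order along the block) from the 6 baits (columns), libraries of a bait summed and 25 kb added on either side of each gene. B26 and B87 are above 0 except at Cdh16 and Car7 from B26, and B53 is below 0 at every gene, from -1.24 to -0.12.

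Single sites were captured at different frequencies. Of the 891 sites, 805 were captured in at least 1 library, the median site in 20 of 64, and the most captured in 35. From B118 and B87 a site was captured in 58.8% and 49.9% of libraries on average, from B26 in 19.2%, B53 in 18.3%, B44 in 17.8% and B7 in 7.41%. Sites in every library of a bait numbered 13 from B118 and 2 from B87, and 0 from the others. The 2 of B87 lie in introns of E2f4 (chr8:107824617-107824622) and Slc12a4 (chr8:108470460-108470465), and both were captured in 0 of 11 libraries of B53 and of B7. The sites captured in most libraries over all baits lie in an intron of Prmt7 (chr8:108770341-108770346) and 28184 bp from Smpd3 (chr8:108818003-108818008), with 35 of 64 libraries each. The Cdh1 intron site (chr8:109173994-109173999) had the most reads of the named sites, 10675, of which 7915 came from B118 and 1745 from B87.

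From B26 the leading sites lay in introns of Fhod1 (chr8:107863119-107863124), a formin gene, and Kctd19 (chr8:107915581-107915586), each in 7 of 11 libraries. The site beside Ces2h (chr8:107521976-107521981) was captured in 10 of 11 libraries of B53, against 1 of 11 of B26. The site beside Cdh1 (chr8:109119176-109119181) was captured in 9 of 11 libraries of B44, with 43 reads from that bait, and in 1 of 11 from each of B7, B26 and B53. The site beside Terf2 (chr8:109624384-109624389) was the most captured from B7, in 7 of 11. The other named sites were captured in 23 to 33 of 64 libraries and lie in introns of Ces2c and Fam65a and beside Pskh1, Slc12a4, Cyb5b and Nqo1. All of these were picked as the highest of each bait, so their numbers are a description.

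Ctcf itself spans chr8:108160468-108206822 on the plus strand and holds 17 HindIII sites, 14 in introns and 3 in exons, all captured in at least 2 libraries. The most captured intron site, chr8:108171012-108171017, was found in 26 of 64 libraries with 4513 reads. The least captured, chr8:108194943-108194948, was found in 2 with 15 reads. A site in an exon, chr8:108160843-108160848, was found in 7 of 10 libraries of B87, 8 of 10 of B118, 3 of 11 of B26, 2 of 11 of B53, 1 of 11 of B44 and 0 of 11 of B7.

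Over the 891 sites, the number of libraries that captured a site went only weakly with what surrounds it. Spearman coefficients were 0.04 to 0.10 with the GC content of the 500 bases around the site and 0.07 to 0.15 with the length of its shorter HindIII fragment, depending on the bait. The 699 sites with a DpnII site in both adjoining fragments were captured in a median of 21 libraries, the 178 with it in 1 fragment in 17, and the 14 with none in 9. Sites of 1 library share its depth, so no test is given.

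Between labels, no change common to the 6 baits passed the test. At 2 to 4 h the log2 ratio of the block averaged 1.30 ± 0.65 from B87 (SD, n = 3), against 0.90 ± 0.53 in the first hour (n = 4), and the libraries overlapped. From B26 it averaged 0.80 ± 0.21, against 0.56 ± 0.16 in the first hour, and from B53 -0.73 ± 0.33, against -0.61 ± 0.41 in the first hour. The difference of 2 to 4 h minus first hour was 0.13 ± 0.18 on the log2 scale over 6 baits (SD, above 0 in 5, exact sign-flip permutation p = 0.156; 6 baits allow no p below 0.03125). Leaving out 3 h gave 0.15 and leaving out 1 h replicate 1 gave 0.12, each above 0 at 6 of 6 baits with that smallest p of 0.03125, by the same exact test. Leaving out 4 h gave 0.06 (exact permutation p = 0.219), and leaving out 30 min replicate 2, which shares sites with 3 h at B7, gave 0.15 (exact permutation p = 0.219).

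At the level of bins, edgeR with each label as a level of its own called 2 of 36 block bins between 2 to 4 h and the first hour (16.8% of 1461 bins of the chromosome were called, 1.98% as higher and 14.9% as lower), and the libraries of the stages separated in 0 of 36 (2.40% of bins). The one from B44, chr8:107000001-107500000, had a log2 fold change of 1.82 ± 0.36 (SE, adjusted p = 0.000715, edgeR), and the one from B53, chr8:108500001-109000000, -4.32 ± 1.36 (adjusted p = 0.0409, edgeR), where mean CPM, computed on the reads in tested bins, was 509 in 2 to 4 h and 655 in the first hour. In this bin the B53 library of 4 h, a level of its own, had 0 reads. With the labels of a stage as 1 level, so that the spread between labels entered the test, edgeR called 0 of 36 and DESeq2 0 of 36 (0% of all bins with edgeR), with 1 of 36 at an unadjusted p under 0.05 in each. Under the first design, leaving out 30 min replicate 1 or 2 h gave 5 called bins and leaving out 30 min replicate 2 gave 7, and leaving out 1 h replicate 1, 1 h replicate 2 or 4 h gave 1.

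In G0 the block lay nearer to its expected number than at 2 to 4 h from B87, B26 and B53. From B87 the G0 libraries had log2 ratios of 0.35 and 0.25, against 0.56, 1.65 and 1.70 at 2, 3 and 4 h. In G0, B26 had 0.17 and 0.31, against 0.62, 0.76 and 1.03 at 2, 3 and 4 h. From B53 the G0 values were 0.17 and -0.15, against -0.38, -1.03 and -0.78. G0 lay outside the range of the 3 later libraries at these baits and at B7 (0.18 on average, against -0.22 at 2 to 4 h) and B44 (-0.28 against -0.08 at 2 to 4 h). At B118 they overlapped (0.02 against 0.12 at 2 to 4 h). At equal numbers of captured sites the libraries of B7 overlapped as well. Separation of these 2 and 3 libraries was common, as 60.2% of the bins of chromosome 8 had no overlap in CPM between the stages.

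Since the direction differed, the mean difference of G0 minus 2 to 4 h was -0.12 ± 0.63 over 6 baits (SD, above 0 in 2, exact permutation p = 0.656). It was -0.17 (exact p = 0.562) without the libraries that share sites. From B87, G0 libraries captured 229 and 581 sites of the block, against 690, 93 and 65 at 2, 3 and 4 h, so the libraries differed in depth. At equal numbers of captured sites the difference was -0.99 from B87, -0.52 from B26 and 0.54 from B53. Those sites were drawn from the sites already captured, so the draw could not undo any saturation of the deeper libraries. A difference corrected for saturation is not given by bait. On reads in place of captured sites, B87 had 0.04 and 0.25 in G0, against 1.51, 1.84 and 1.68 at 2, 3 and 4 h.

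In the edgeR fit with each label as a level, 19 of 36 block bins differed between G0 and 2 to 4 h, and 53.5% of all bins did so on chromosome 8. From B26, 6 of 6 block bins were lower in G0, with log2 fold changes of -4.42 to -2.79 and no overlap between the libraries of the stages in 6 of 6 (60.2% of all bins had none). In the Ctcf bin, mean CPM from B26 was 209 in G0 and 5077 at 2 to 4 h, and the median bin of B26 was at 0.21. These fold changes were not set against the number expected from distance. On reads over that expected number, the block from B26 averaged 0.02 in G0 and 0.93 at 2 to 4 h, a log2 difference of -0.90. On captured sites the difference was -0.56. From B44, 4 of 6 were lower, and from B87, 2 of 6, those of Prmt7 and of Cdh1. Over the chromosome, bins called in either direction numbered 145 of 244 from B26, 144 of 243 from B44 and 133 of 243 from B87. They numbered 110 of 243 from B118, 160 of 244 from B53 and 90 of 244 from B7. Over all baits 31.1% of bins were called higher in G0 and 22.4% lower. From B118, 3 of 6 were higher in G0, among them the Ctcf bin at 1.54 ± 0.40 (SE, adjusted p = 0.00855, edgeR), with a mean CPM of 9950 in G0 and 5778 at 2 to 4 h. B53 had 3 called bins, 2 of them lower, and B7 had 1, lower in G0. The B53 bin called higher, chr8:108500001-109000000, had a log2 fold change of 4.23. Its mean CPM was 465 in G0 and 509 at 2 to 4 h, where the 4 h library had 0 reads. Without G0 replicate 1 there were 12 called bins, and without G0 replicate 2 there were 9. With the labels of a stage as 1 level, edgeR called 0 of 36 (15 at an unadjusted p under 0.05; 0% of all bins) and DESeq2 11 of 36 (361 of 1461 bins).

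The remaining labels had 1 library a bait and no replicate check. In G2 the log2 ratio of the block was above 0 from 6 of 6 baits, at 0.46 from B7, 0.29 from B26, 0.27 from B44, 0.42 from B53, 0.25 from B87 and 0.01 from B118. In mitosis it was 0.25 from B26, -0.40 from B7, -0.23 from B44 and -0.24 from B53. The G2 libraries captured only 23, 26, 55 and 48 block sites from B7, B26, B44 and B53, and for B7 16.6 were expected. At equal numbers of captured sites, G2 fell to -0.04, -0.11 and -0.06 from B26, B44 and B53. B7 in G2 then had 0.36, and all 10 libraries of B87 stayed above 0. Mitosis then had -0.18 from B26, -0.53 from B7, -0.06 from B44 and -0.54 from B53. The share of reads on chromosome 8 beyond 2 Mb that fell in the block was lower in G0 than at 2, 3 and 4 h from B87 (2.64% and 3.28% in G0, against 7.84%, 9.49% and 8.79%) and from B26 (0.159% and 0.110% in G0, against 2.20%, 3.97% and 2.43%). Its part in the results on reads per bin was not tested.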

How the data were processed

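The authors deposited 1 table of raw read counts per HindIII site for 109 libraries; alignment was by BWA 0.5.9 to mm9, per the submitters' processing notes, and read filters are not given in the sources used here. Positions matched the first base of the HindIII sites of mm9. The 39 columns of other chromosomes' baits and of 1.5 h were not used, and the technical replicates of 2 h were summed. Expected captured sites came from a lowess (span 0.5, statsmodels 0.14.6) on log10 distance of the captured share per site in 500-kb bins with 20 sites or more, beyond 2 Mb from the bait, scaled to the library's total; ratios used a pseudocount of 0.5. Bin tests used edgeR 4.0.16 (TMM, filterByExpr, robust fit), with DESeq2 1.42.0 and limma 3.58.1 as alternatives, and Benjamini-Hochberg adjustment at 0.05. Standard errors of fold changes came from the quasi-likelihood F. In simulated counts, 96.0% of doubled bins were called between baits. Between 2 to 4 h and the first hour, 23.5% of bins changed 4-fold and 89.7% of bins changed 16-fold were called. No molecular identifiers mark the amplified reads, so numbers of reads carry no counting interval. Named genes were picked by role, and named sites were the 2 captured in most libraries of each bait and the 5 over all baits. The block and these lists were chosen with earlier results of these data known. Genes were annotated with GENCODE for the same build.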

Additional observations from a re-analysis of the deposited data

Results flagged for a closer look

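The difference between G0 and 2 to 4 h in the log2 ratio of the block went in opposite directions at 6 pairs of baits, with no overlap between the libraries of the stages at either bait of a pair. The difference of these differences was 0.96 for B7 minus B26, 0.59 for B7 minus B44 and 1.40 for B7 minus B87. It was -1.30 for B26 minus B53, -0.93 for B44 minus B53 and 1.74 for B53 minus B87. None of these 6 differences was tested, and each rests on 2 libraries of G0 and 3 of 2 to 4 h a bait. At equal numbers of captured sites the G0 and later libraries of B7 overlapped. On CPM, 60.2% of the bins of chromosome 8 had no overlap between these stages. For 2 to 4 h against the first hour the difference between baits was tested for 15 pairs, and 0 passed (smallest exact permutation p = 0.114, adjusted p = 0.827). Among the 4 libraries of the first hour, 12 groups of values were checked for a library far from the others and 0 held one, where chance gives about 1 in 20.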

How the results depend on the processing

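For the block per bait, all 12 alternatives kept B7, B26 and B87 on their side of the threshold, with means of 0.72 to 1.13 from B87 and 0.38 to 0.64 from B26. B44 no longer passed with the curve fitted without the block (-0.14), with a lowess span of 0.3 (-0.0879), without the sharing libraries (-0.13, or -0.12 with G0 included) or without sites that have no unique end (-0.12). B53 missed without the sharing libraries (-0.45). B118 missed at equal numbers of captured sites (0.0534), and reads turned it to -0.0333. Against the flanks, B44 passed when expected numbers were set per bin (-0.22) or numbers of captured sites were equal (-0.14), and B53 missed without the sharing libraries (-0.49). B118 passed beyond 5 Mb (0.0511) and on sites with a unique end (0.0723), and turned to -0.0683 per bin and -0.0781 on reads. The pair B7 minus B44 turned to 0.17 on reads and 0.0330 at 2 reads or more. Between 10 and 12 of 15 bait pairs differed under 13 alternatives. With labels as a replicate block, 10 pairs differed. The correlation of 2 baits over labels ran from -0.85 to 0.94. At some pairs the deviations went together (0.94 for B87 and B118, 0.86 for B26 and B87). At others they went in opposite directions (-0.85 for B53 and B87, -0.80 for B53 and B118). Leaving out 1 library in turn moved 2 to 4 h minus first hour between 0.0601 and 0.194, G0 minus 2 to 4 h between -0.18 and -0.05, and the block bins called to between 1 and 7 for the first and 9 and 19 for the second. For the first, bins called were 0 on captured sites, 8 of 72 at 250 kb, 1 of 18 at 1 Mb, 1 without sharing libraries (1 with G0 included), 0 with labels of a stage as 1 level (0 with DESeq2, 0 without sharing libraries). For the second they were 6 on captured sites, 11 of 18 at 1 Mb, and 0 with labels as 1 level (11 with DESeq2, 0 without sharing libraries). Replicate number as a block gave 2 and 19 called bins. Each bait against the others gave 6 calls at equal numbers of captured sites, and 18 with a replicate block. Saturation, unique ends, the sharing G0 libraries and labels as 1 level were tried after seeing the data. Few captured sites at 3 h and 4 h limit those libraries.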
